A study of Oryza sativa with 9 samples.

Results

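Rice genes that reduce nitrate and assimilate ammonium were followed in young panicles, 10 of the 56143 genes in the count table. They were chosen by their identifiers in the rice annotation MSU v7.0 as enzymes of a single route, with the fitted change of NiR in osmads58 CRISPR known and no measured value used as a threshold. The list holds 2 nitrate reductases (LOC_Os02g53130 and LOC_Os08g36480), the nitrite reductase NiR (LOC_Os01g25484), and the glutamine synthetases GS1;1 (LOC_Os02g50240), GS1;2 (LOC_Os03g12290) and GS2 (LOC_Os04g56400). It also holds the glutamate synthases Fd-GOGAT (LOC_Os07g46460), NADH-GOGAT1 (LOC_Os01g48960) and NADH-GOGAT2 (LOC_Os05g48200), and the asparagine synthetase ASN1 (LOC_Os03g18130). Because of that choice, the fitted values of these genes are descriptions of these samples.

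Nitrate is reduced to nitrite in the cytosol by nitrate reductase, and nitrite is reduced to ammonium in plastids by nitrite reductase, which takes its electrons from ferredoxin. Glutamine synthetase then joins ammonium to glutamate, and glutamate synthase passes the amide group of glutamine on to form glutamate. Asparagine synthetase moves amide nitrogen from glutamine to asparagine, a form in which plants store and transport nitrogen.

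RNA was sequenced from panicles 1 cm long of 2 osmads58 CRISPR, 4 osmads58 dSpm and 3 wild-type samples, with 1 library per sample. The osmads58 CRISPR samples carry edits in the coding sequence of OsMADS58, a C-class MADS box gene, come from independent transgenic lines and are from sterile plants. The osmads58 dSpm samples (1, 2, 4b and 5b) carry a transposon insertion in an intron of the same gene, which lowers its expression without removing it, and both mutants are labelled osmads58-/-. The study's plants included the cultivar Nipponbare, and its methods state the pooling of panicles from several plants for the osmads58 CRISPR samples only.

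Total counts ranged from 65192657 to 83042245 per sample, with a median of 77715447. OsMADS58 (LOC_Os05g11414) was at 0.270 and 0.471 CPM (counts scaled to the effective library size of each sample) in osmads58 CRISPR, at 0.719 to 2.097 CPM in osmads58 dSpm and at 3.29 to 8.38 CPM in the wild type, so the groups did not overlap. Its log2 fold change was -3.81 in osmads58 CRISPR relative to wild type (adjusted p = 0.0153, edgeR quasi-likelihood test). In osmads58 dSpm relative to wild type it was -1.66 (adjusted p = 0.118), and in osmads58 CRISPR against osmads58 dSpm -2.15 (adjusted p = 0.0638), neither under 0.05. Over all tested genes, samples did not overlap for 54.6%, 15.1% and 40.4% in these 3 comparisons. The floral organ marker list, 10 MADS box genes, was detected in every sample. Its summed level was 851 to 854 CPM in osmads58 CRISPR, 1031 to 1561 CPM in osmads58 dSpm and 1240 to 2132 CPM in the wild type. Across all tested genes, osmads58 dSpm samples 4b and 5b were closest to each other among the samples of that line (r = 0.981, against 0.926 to 0.933 for the other pairs), and wild type 1 lay apart from wild type 2 and 3 (r = 0.944 to 0.946, against 0.972 between those). The line and the wild type did not separate by this measure: osmads58 dSpm 1 had r = 0.932 with wild type 1, and osmads58 dSpm 2 had r = 0.939 and 0.942 with wild type 2 and 3, each above its r with the other samples of its own line.

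In osmads58 CRISPR panicles ASN1, an asparagine synthetase gene, was 2.57-fold lower and NiR 1.99-fold lower than in the wild type. GS1;2 was 4.03-fold higher. ASN1 and GS1;2 were called, while NiR passed the adjusted p and fell just short of the fold threshold. The call of GS1;2 was lost in 11 of 20 alternative fits and that of ASN1 in 5 of 20. ASN1 was also 3.17-fold lower than in osmads58 dSpm. The 3 glutamate synthase genes did not pass the test in any comparison of the main fit, and none of the 10 genes passed it in osmads58 dSpm relative to wild type. Tests were run with the quasi-likelihood method of edgeR, with p-values adjusted by Benjamini-Hochberg over all 27251 tested genes, and a call needed an adjusted p below 0.05 and more than 1 on the log2 scale in either direction.

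**Figure D1:**
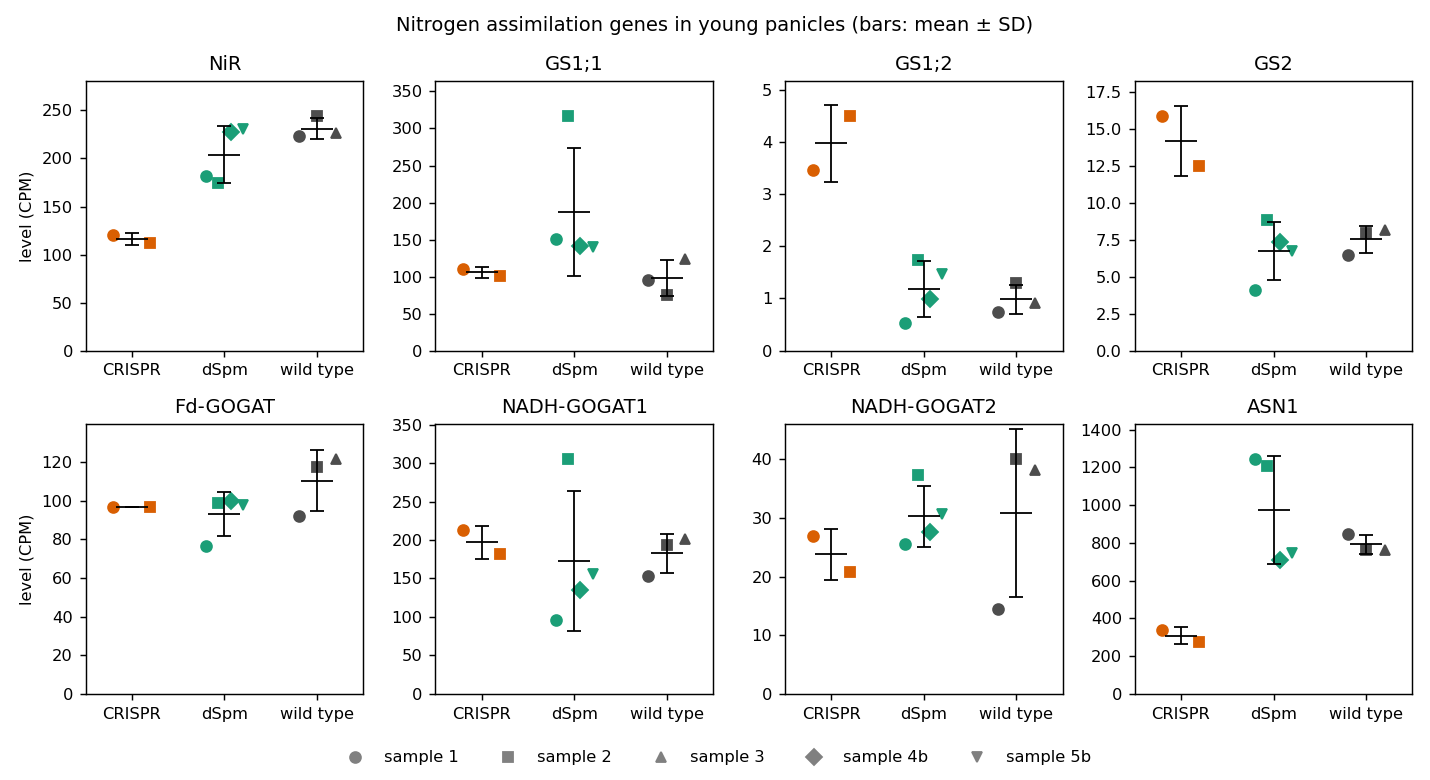
Level in CPM (vertical axis, starting at 0) of the 8 genes averaging at least 1 CPM in each osmads58 CRISPR, osmads58 dSpm and wild-type sample, with symbols for the sample numbers and bars for the mean ± SD (n = 2, 4 and 3). The osmads58 CRISPR samples lie below all wild-type samples for ASN1 and NiR and above them for GS1;2 and GS2, and osmads58 dSpm 2 stands apart for GS1;1 at 317 CPM.

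The first step of the route was barely measured in these panicles. The nitrate reductase gene LOC_Os02g53130 had a count of 0 in all 9 samples, which allows up to 3 counts or 0.0337 to 0.0459 CPM depending on the sample, and it was not tested. The other nitrate reductase gene, LOC_Os08g36480, had 45 and 31 counts in osmads58 CRISPR, 23, 0, 56 and 44 counts in osmads58 dSpm 1, 2, 4b and 5b, and 0, 30 and 50 counts in the wild type. Its level was at most 0.711 CPM, and the groups overlapped. No difference was detectable at this depth, the log2 fold change being 0.46 in osmads58 CRISPR relative to wild type (SE, the standard error, 1.72, adjusted p = 0.907) and 0.18 in osmads58 dSpm relative to wild type (SE 1.46, adjusted p = 0.970). The identifier LOC_Os08g36500, which has a neighbouring number on the same chromosome, had 56 and 27 counts in osmads58 CRISPR, 30, 0, 60 and 36 counts in osmads58 dSpm, and 0, 30 and 8 counts in the wild type. It was at 0 in the same 2 samples, osmads58 dSpm 2 and wild type 1. Whether reads were shared between the 2 identifiers was not tested, and their counts are uncertain for that reason.

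The second step, nitrite reduction, was measured at high counts. The study's quantitative PCR primers labelled with the NiR identifier, LOC_Os01g25484, are shown as given. They were not aligned to any transcript, and the name NiR rests on the identifier. Both are written in lower case, 5′ to 3′, with no part singled out.
NiR forward primer: ataagccccaagaggtggga
NiR reverse primer: cattccctgcaatgccaaca
Each primer has 20 bases, 11 of them G or C in the forward and 10 in the reverse primer.

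NiR was at 120.5 and 112 CPM in osmads58 CRISPR (8936 and 9975 counts), at 182, 174, 228 and 231 CPM in osmads58 dSpm 1, 2, 4b and 5b, and at 223, 244 and 227 CPM in the wild type. Both osmads58 CRISPR samples were below every other sample. Among the osmads58 dSpm samples, 1 and 2 lay below all wild-type samples, while 4b and 5b lay within the wild-type range. The means were 116 ± 6.01 CPM in osmads58 CRISPR (SD, n = 2), 204 ± 29.6 CPM in osmads58 dSpm (n = 4) and 231 ± 11.2 CPM in the wild type (n = 3).

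NiR was lower in osmads58 CRISPR than in the wild type by a log2 fold change of -0.99 (SE 0.17, 95% interval -1.38 to -0.60, adjusted p = 0.0154 by the edgeR quasi-likelihood test, Benjamini-Hochberg adjusted). The adjusted p passed its threshold and the fold change, just short of 2-fold, did not. With scaling by RLE size factors the log2 fold change was -1.01 and passed both. The difference of osmads58 CRISPR from osmads58 dSpm was a log2 fold change of -0.81 (SE 0.17, 95% interval -1.18 to -0.44, adjusted p = 0.0222 from the same edgeR test). With only osmads58 dSpm 1 and 2 in the comparison this value was -0.58 (adjusted p = 0.0565), and with only 4b and 5b it was -0.96 (adjusted p = 0.00318). Without wild type 2 the adjusted p for NiR against the wild type was 0.0506. Against osmads58 dSpm it was 0.0554 without osmads58 dSpm 4b and 0.0624 without 5b. In fits without either osmads58 CRISPR sample, which left 1 sample in that group, NiR did not pass in either comparison. In osmads58 dSpm relative to wild type the log2 fold change was -0.18 (95% interval -0.50 to 0.13, adjusted p = 0.579).

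Among 13214 tested genes averaging at least 10 CPM, the 5 whose log2 level followed NiR most closely over the 9 samples had Pearson's r of 0.978 to 0.983. The first of them was LOC_Os02g54510 (r = 0.983, and 0.856 after the group means were taken out) and the next LOC_Os06g19470 (r = 0.980, and 0.842). These points share libraries and group differences, and the files give neither gene a name. LOC_Os06g19470 averaged 133 CPM in osmads58 CRISPR, 229.6 CPM in osmads58 dSpm and 260.3 CPM in the wild type.

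Ammonium enters amino acids through the glutamine synthetases, and the 3 genes did not share a pattern. GS1;1 encodes a cytosolic enzyme. It was at 111 and 101 CPM in osmads58 CRISPR, at 151, 317, 142 and 139.8 CPM in osmads58 dSpm 1, 2, 4b and 5b, and at 95.4, 75.1 and 124 CPM in the wild type. All osmads58 dSpm samples were above all wild-type samples, and dSpm 2 stood far above the other 3. The osmads58 CRISPR samples lay within the wild-type range.

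For GS1;1 the log2 fold change in osmads58 dSpm relative to wild type was 0.93 (SE 0.31, 95% interval 0.23 to 1.64), which did not pass the adjustment (adjusted p = 0.184, edgeR). In osmads58 CRISPR relative to wild type it was 0.11 (95% interval -0.71 to 0.93, adjusted p = 0.895), and against osmads58 dSpm it was -0.82 (95% interval -1.63 to -0.01, adjusted p = 0.204). None of these 3 differences passed the threshold in any of the 20 alternative fits.

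GS1;2, the gene of another cytosolic glutamine synthetase, was at 3.45 and 4.49 CPM in osmads58 CRISPR (256 and 400 counts), at 0.538, 1.74, 0.990 and 1.46 CPM in osmads58 dSpm (40 to 116 counts), and at 0.741, 1.29 and 0.917 CPM in the wild type (54 to 96 counts). Both osmads58 CRISPR samples were above every other sample, and the osmads58 dSpm samples spanned a range wider than that of the wild type. The means were 3.97 ± 0.735 CPM in osmads58 CRISPR (SD, n = 2), 1.18 ± 0.531 CPM in osmads58 dSpm (n = 4) and 0.983 ± 0.281 CPM in the wild type (n = 3).

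GS1;2 rose in osmads58 CRISPR relative to wild type by a log2 fold change of 2.01 (SE 0.52, 95% interval 0.84 to 3.18, adjusted p = 0.0484 by the edgeR quasi-likelihood test, Benjamini-Hochberg adjusted). The adjusted p lay close to the threshold, and the call was lost in 11 of 20 alternative fits, over all of which the log2 fold change lay between 1.82 and 2.26. Among them were the fits without either osmads58 CRISPR sample, which left 1 sample in that group. Also among them were those without any 1 of the wild-type samples (adjusted p = 0.0894 to 0.122), without osmads58 dSpm 4b or 5b (0.0675 and 0.0690) and with RLE size factors (0.0509). Against osmads58 dSpm the log2 fold change was 1.75 (SE 0.48, adjusted p = 0.0591), and in osmads58 dSpm relative to wild type it was 0.27 (SE 0.44, adjusted p = 0.828), neither past the threshold. Without osmads58 dSpm 2 the value against osmads58 dSpm was 2.03 and passed it (adjusted p = 0.0431).

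A ratio of counts within a sample does not depend on how libraries are scaled. Per 100 counts of GS1;1 there were 3.11 and 4.46 counts of GS1;2 in osmads58 CRISPR, 0.356, 0.551, 0.699 and 1.04 in osmads58 dSpm 1, 2, 4b and 5b, and 0.777, 1.72 and 0.740 in the wild type. The ratio was highest in the osmads58 CRISPR samples and did not overlap with the other groups. It shows an unequal change of the pair and not which of them moved, and without transcript lengths it is no ratio of molecules.

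GS2, the plastid glutamine synthetase gene, was at 15.9 and 12.5 CPM in osmads58 CRISPR, at 4.07, 8.81, 7.33 and 6.76 CPM in osmads58 dSpm 1, 2, 4b and 5b, and at 6.49, 7.96 and 8.14 CPM in the wild type. Both osmads58 CRISPR values were above all others. The log2 fold change was 0.91 against the wild type (SE 0.32, 95% interval 0.21 to 1.62, adjusted p = 0.108, edgeR) and 1.07 against osmads58 dSpm (SE 0.29, adjusted p = 0.0591). Neither passed the threshold, and without osmads58 dSpm 2 the value against that line was 1.26 and passed it (adjusted p = 0.0369). In osmads58 dSpm relative to wild type it was -0.16 (SE 0.27, adjusted p = 0.827).

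Since GS2 is a plastid enzyme abundant in green tissue, a list of 6 green tissue markers is set beside it. Their summed level was 37.7 to 49.8 CPM in osmads58 CRISPR, 31.1 to 57.3 CPM in osmads58 dSpm and 32.6 to 35.3 CPM in the wild type, with none at 0 in osmads58 CRISPR or the wild type. Of the 6, 0 were called in any comparison by edgeR. Over all tested genes, 5.55% were called in osmads58 CRISPR relative to wild type, 5.36% against osmads58 dSpm and 1.45% in osmads58 dSpm relative to wild type. In osmads58 CRISPR relative to wild type, 2 of the 6 had an unadjusted p under 0.05, where 25.7% of all tested genes did. These 2 lay in opposite directions, with log2 fold changes of 2.56 for LOC_Os01g41710 (adjusted p = 0.0881) and -0.63 for LOC_Os12g17600 (adjusted p = 0.188). The part of green tissue in the GS2 values was not tested. In such bulk samples, fewer cells of a type and less RNA per cell cannot be told apart.

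The glutamate synthases return the nitrogen of glutamine to glutamate. Fd-GOGAT, the ferredoxin-dependent enzyme of plastids, was at 96.6 and 96.6 CPM in osmads58 CRISPR, at 76.4, 98.7, 100.05 and 97.7 CPM in osmads58 dSpm 1, 2, 4b and 5b, and at 92.3, 118 and 121 CPM in the wild type. The groups overlapped, and osmads58 dSpm 1 was the lowest of all samples. The log2 fold change was -0.19 in osmads58 CRISPR relative to wild type (95% interval -0.60 to 0.22, adjusted p = 0.554, edgeR), 0.05 against osmads58 dSpm (95% interval -0.33 to 0.44, adjusted p = 0.891) and -0.24 in osmads58 dSpm relative to wild type (SE 0.15, adjusted p = 0.464).

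NADH-GOGAT1, an NADH-dependent glutamate synthase gene, was at 212 and 182 CPM in osmads58 CRISPR, at 96.3, 305, 136 and 156 CPM in osmads58 dSpm 1, 2, 4b and 5b, and at 154, 194 and 201 CPM in the wild type. The osmads58 dSpm samples held both the lowest and the highest value, so their SD was 91.2 CPM around a mean of 173 CPM, against 25.4 CPM around 183 CPM in the wild type. The log2 fold changes were 0.11 in osmads58 CRISPR relative to wild type (SE 0.40, adjusted p = 0.904, edgeR), 0.19 against osmads58 dSpm (SE 0.38, adjusted p = 0.812) and -0.08 in osmads58 dSpm relative to wild type (SE 0.33, adjusted p = 0.941).

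NADH-GOGAT2, the other gene of this type, was at 26.9 and 20.8 CPM in osmads58 CRISPR, at 25.5, 37.4, 27.6 and 30.7 CPM in osmads58 dSpm, and in the wild type at 14.4 CPM in sample 1 (1052 counts) and at 38.2 CPM or more in samples 2 and 3 (2975 and 3001 counts). Wild type 1 was the lowest sample and wild type 2 the highest, so the wild type spanned all mutant samples. The lower end of that span was wild type 1 alone, and all mutant samples lay below wild type 2 and 3. The log2 fold changes were -0.37 in osmads58 CRISPR relative to wild type (SE 0.39, adjusted p = 0.593, edgeR), -0.35 against osmads58 dSpm (SE 0.37, adjusted p = 0.621) and -0.03 in osmads58 dSpm relative to wild type (SE 0.32, adjusted p = 0.979). Over 20 alternative fits the value in osmads58 CRISPR relative to wild type ran from -0.72 to -0.03. Its adjusted p was under 0.05 in 1 of them, and none reached the fold threshold.

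ASN1, the 1 asparagine synthetase gene among the 10 genes, was at 339.6 and 276 CPM in osmads58 CRISPR (25193 and 24557 counts), at 1242, 1205, 711 and 744 CPM in osmads58 dSpm 1, 2, 4b and 5b, and at 849, 763 and 763 CPM in the wild type. Both osmads58 CRISPR samples were below every other sample. The osmads58 dSpm samples fell on either side of the wild type, with 1 and 2 above all wild-type samples and 4b and 5b below them. The means were 308 ± 45.2 CPM in osmads58 CRISPR (SD, n = 2), 976 ± 287 CPM in osmads58 dSpm (n = 4) and 792 ± 49.6 CPM in the wild type (n = 3).

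ASN1 fell in osmads58 CRISPR relative to wild type by 2.57-fold, a log2 fold change of -1.36 (SE 0.28, 95% interval -1.98 to -0.74, adjusted p = 0.0237 by the edgeR quasi-likelihood test, Benjamini-Hochberg adjusted). Against osmads58 dSpm the log2 fold change was -1.67 (SE 0.27, 95% interval -2.27 to -1.06, adjusted p = 0.00885 from the same edgeR test). It was -1.96 against osmads58 dSpm 1 and 2 only (adjusted p = 0.00356) and -1.22 against 4b and 5b only (adjusted p = 0.00249). The call against the wild type was lost without any 1 of the wild-type samples (adjusted p = 0.0560 to 0.0602). It was also lost without either osmads58 CRISPR sample, and the call against osmads58 dSpm was lost only there. Those 2 fits left 1 sample in the osmads58 CRISPR group, so the loss says little about ASN1 itself. In osmads58 dSpm relative to wild type the log2 fold change was 0.30 (95% interval -0.20 to 0.80, adjusted p = 0.555). LOC_Os06g15420, taken from general knowledge as another asparagine synthetase gene, lay the other way. It was at 183 and 180 CPM in osmads58 CRISPR, 121 to 145 CPM in osmads58 dSpm and 105 to 156 CPM in the wild type. Its log2 fold change in osmads58 CRISPR was 0.39 against the wild type (adjusted p = 0.236, edgeR) and 0.41 against osmads58 dSpm (adjusted p = 0.209), neither a call.

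Counts of ASN1 per 100 counts of NiR were 282 and 246 in osmads58 CRISPR, 682, 691, 312 and 323 in osmads58 dSpm 1, 2, 4b and 5b, and 381, 313 and 337 in the wild type. The lowest ratios were those of osmads58 CRISPR. Counts of ASN1 per 100 counts of GS1;1 were 306 and 274 in the osmads58 CRISPR samples, 822, 381, 502 and 532 in those of osmads58 dSpm, and 889.6, 1017 and 615 in the wild type. The osmads58 CRISPR samples were again lowest, and osmads58 dSpm 1 lay among the wild-type samples.

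**Figure D2:**
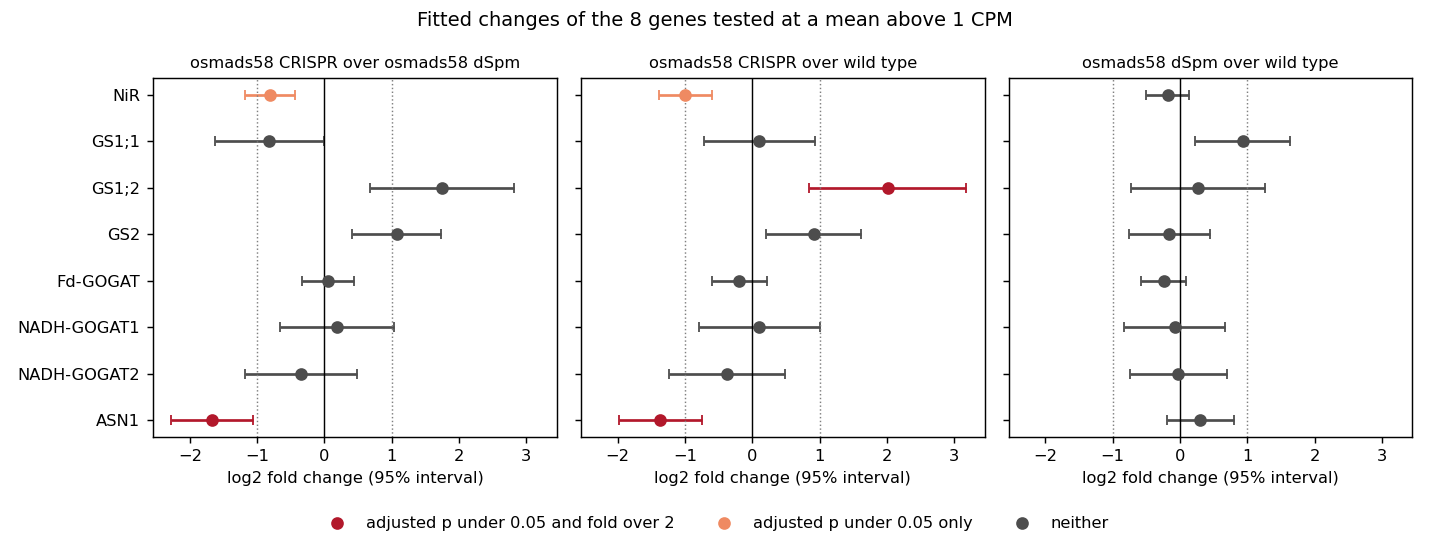
Log2 fold change with its 95% interval (horizontal axis) of the 8 genes averaging at least 1 CPM in 3 comparisons, from edgeR's quasi-likelihood fit, with dotted lines at a log2 fold change of 1 in either direction. ASN1 (-1.36) and GS1;2 (2.01) are past both thresholds in osmads58 CRISPR over wild type and ASN1 (-1.67) in osmads58 CRISPR over osmads58 dSpm, and no gene passes in osmads58 dSpm over wild type.

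Over the list, 9 of the 10 genes were detected and these 9 were tested, LOC_Os08g36480 at under 1 CPM. In osmads58 CRISPR relative to wild type, 2 of the 9 were called, 1 higher (GS1;2) and 1 lower (ASN1), where 5.55% of all tested genes were called, 2.04% higher and 3.51% lower. With RLE size factors the 2 called were ASN1 and NiR, both lower. With NiR, 3 of 9 passed the adjusted p alone, against 7.28% of all tested genes. In osmads58 CRISPR against osmads58 dSpm, 1 of 9 was called, ASN1 as lower, where 5.36% of all tested genes were called, 1.44% higher and 3.93% lower. With NiR, 2 of 9 passed the adjusted p alone, against 7.2%. In osmads58 dSpm relative to wild type, 0 of 9 were called by edgeR and 0 by DESeq2, where edgeR called 1.45% of all tested genes. At an unadjusted p under 0.05 by edgeR there was 1 of 9, GS1;1, against 16.6% of all tested genes. As results for NiR were known when the list was drawn up, these counts are no evidence about the route.

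The samples did not overlap for 4 of 9 genes in osmads58 CRISPR relative to wild type, against 54.6% of all tested genes. They did not overlap for 5 of 9 in osmads58 CRISPR against osmads58 dSpm, against 40.4%, and for 1 of 9 in osmads58 dSpm relative to wild type, against 15.1%. The median log2 fold change of the 9 genes was 0.11, 0.05 and -0.03 in these 3 comparisons, against 0.00, -0.05 and 0.06 over all tested genes. The 3 comparisons share samples, so their values stand side by side and were not compared with each other.

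**Figure D3:**
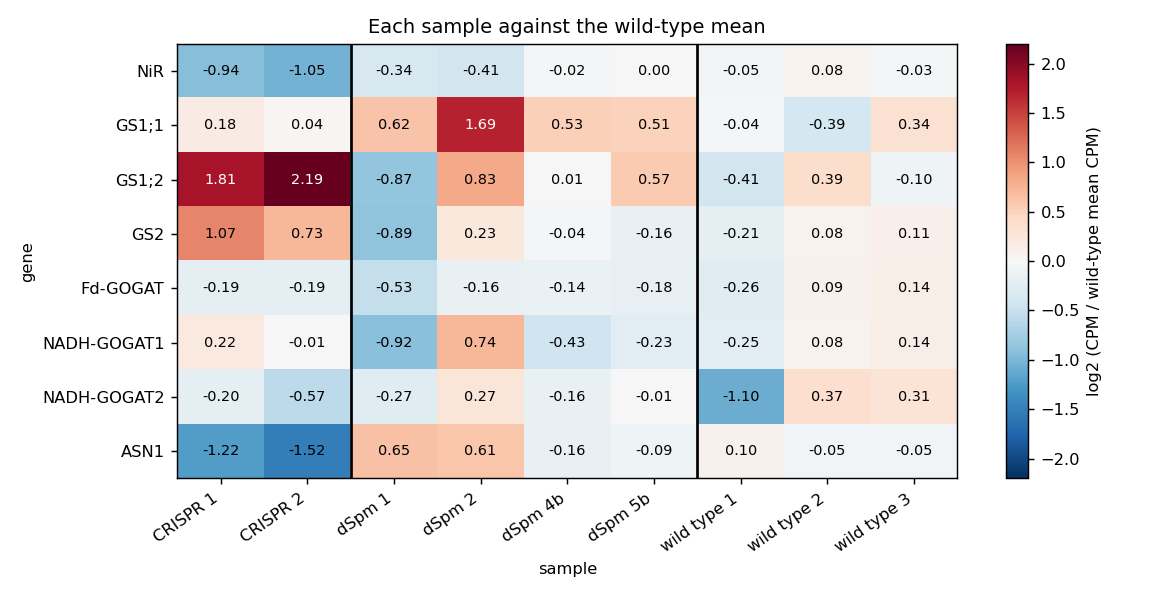
Each of the 9 samples (columns) against the mean of the wild type for the 8 genes averaging at least 1 CPM (lines), as log2 of the ratio of CPM values, with red above and blue below the wild-type mean. The osmads58 CRISPR samples are at -1.22 and -1.52 for ASN1 and at 1.81 and 2.19 for GS1;2, and osmads58 dSpm 1 and 2 differ from 4b and 5b in the sign for ASN1.

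For part of the genes the osmads58 dSpm samples differed among themselves. Relative to the wild-type mean, on the log2 scale, ASN1 was at 0.65 and 0.61 in dSpm 1 and 2 but at -0.16 and -0.09 in dSpm 4b and 5b. NiR was at -0.34 and -0.41 in dSpm 1 and 2 and at -0.02 and 0.00 in dSpm 4b and 5b. NADH-GOGAT1 was at -0.92 in dSpm 1 and 0.74 in dSpm 2, so the pair 1 and 2 did not move together for every gene. Both osmads58 CRISPR samples had the same sign for 7 of the 8 genes, with NADH-GOGAT1 (0.22 and -0.01) as the exception. Such agreement was not particular to them, since osmads58 dSpm 4b and 5b shared a sign for every gene shown. Some of the agreeing values were near 0, as for GS1;1 in osmads58 CRISPR (0.18 and 0.04). The share of agreeing signs over all tested genes was not computed.

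Lists of 35 further identifiers around the route were set beside the 10 genes: 7 as other assimilation enzymes, 8 as nitrate transport, 9 as ammonium transport, 7 as nitrate regulators and 4 as ferredoxin-NADP reductases. The lists were put together from general knowledge, the identifiers are not paired with names in the files, and 31 of the 35 were tested. In osmads58 CRISPR relative to wild type, 2 of the 31 were called, 1 higher and 1 lower, against 5.55% of all tested genes. In osmads58 CRISPR against osmads58 dSpm, 2 were called, again 1 higher and 1 lower, against 5.36%. In osmads58 dSpm relative to wild type, 0 were called by edgeR or by DESeq2, against 1.45% by edgeR over all tested genes, and 5 had an unadjusted p under 0.05 from edgeR, against 16.6%. The median log2 fold change of the 31 was 0.03, -0.19 and 0.28 in these 3 comparisons, against 0.00, -0.05 and 0.06 over all tested genes.

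LOC_Os03g58040, listed with the other assimilation enzymes, was at 26.0 and 25.6 CPM in osmads58 CRISPR, at 6.85, 8.84, 12.7 and 11.5 CPM in osmads58 dSpm, and at 5.52, 10.6 and 8.50 CPM in the wild type. It rose in osmads58 CRISPR by a log2 fold change of 1.65 against the wild type (SE 0.33, adjusted p = 0.0214, edgeR) and of 1.37 against osmads58 dSpm (SE 0.30, adjusted p = 0.0285). Both osmads58 CRISPR samples were above every other sample.

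LOC_Os03g03900, listed with the nitrate regulators, was at 56.4 and 61.8 CPM in osmads58 CRISPR, at 124, 140.2, 91.6 and 105 CPM in osmads58 dSpm, and at 154, 131 and 127 CPM in the wild type. It fell in osmads58 CRISPR by a log2 fold change of -1.22 against the wild type (SE 0.21, adjusted p = 0.0140, edgeR), and the value against osmads58 dSpm was -0.97 (SE 0.20, adjusted p = 0.0217), which did not pass the fold threshold. LOC_Os01g50820, listed with nitrate transport, was at 2.32 and 3.65 CPM in osmads58 CRISPR, at 5.51 to 9.83 CPM in osmads58 dSpm and at 5.86 to 7.06 CPM in the wild type. Its log2 fold change against osmads58 dSpm, a call, was -1.31 (SE 0.33, adjusted p = 0.0453, edgeR), and its value against the wild type was -1.10 (adjusted p = 0.0800). None of the calls of these 3 identifiers was made without either osmads58 CRISPR sample, in fits that left 1 sample in that group. The call of LOC_Os03g58040 relative to wild type was also lost without wild type 3, and its call against osmads58 dSpm without wild type 3 or osmads58 dSpm 5b. The call of LOC_Os01g50820 was lost without any 1 of the wild-type samples and without osmads58 dSpm 4b or 5b.

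**Figure D4:**
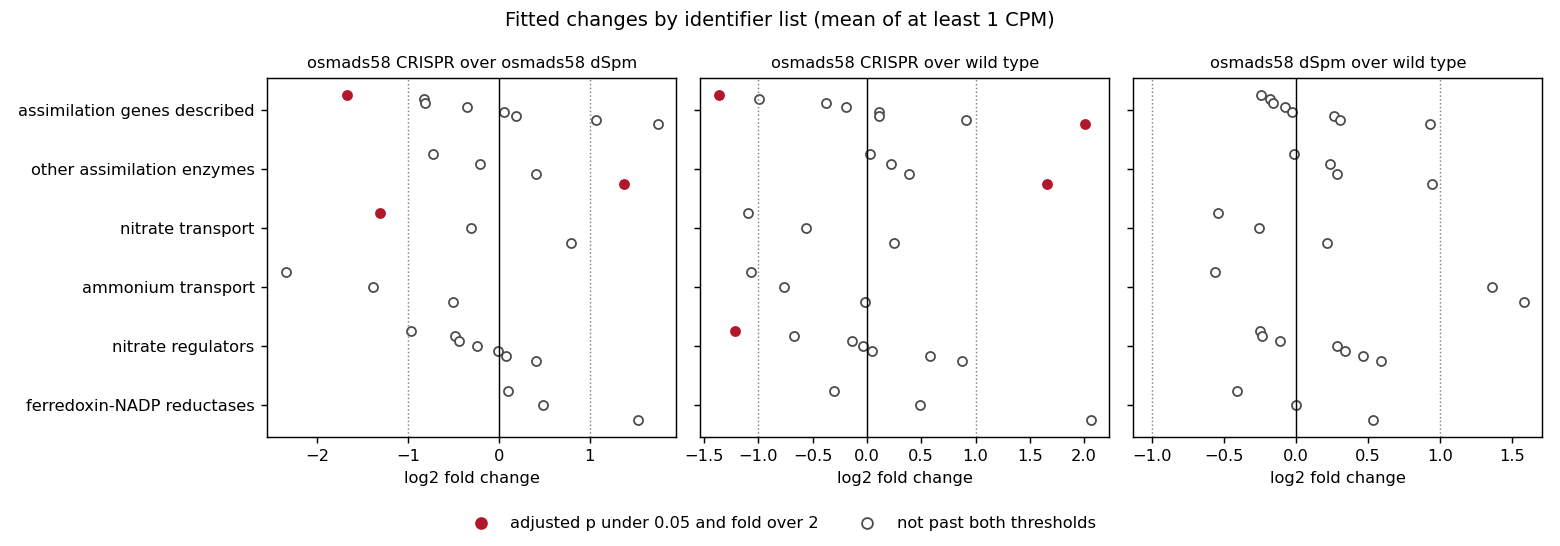
Log2 fold change (horizontal axis) in 3 comparisons of the identifiers averaging at least 1 CPM, with 1 line per list (8 genes of the route, and 4, 3, 3, 7 and 3 identifiers of the further lists) and filled points for those past both thresholds. In osmads58 CRISPR over wild type the filled points are ASN1, GS1;2, LOC_Os03g58040 (1.65) and LOC_Os03g03900 (-1.22), and the panel of osmads58 dSpm over wild type has none.

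The floral organ markers are set beside the comparisons in which ASN1 and GS1;2 were called. Their median log2 fold change in osmads58 CRISPR relative to wild type was -1.09. Their summed levels did not overlap between those groups, and 7 of the 10 did not overlap singly, against 54.6% of all tested genes. Wild type 1 stood apart in the sum, at 2132 CPM against 1240 and 1241 CPM in wild type 2 and 3. How far wild type 1 carried the median was not tested. By edgeR, 0 of 10 were called, against 5.55% of all tested genes, and 4 of 10 had an unadjusted p under 0.05, against 25.7%. Against osmads58 dSpm, where ASN1 was also called, the median log2 fold change of these markers was -1.35, with 0 of 10 called (5.36% of all tested genes) and 6 of 10 at an unadjusted p under 0.05 (23.7%). The 4 tapetum markers summed to 10.8 to 15.2 CPM in osmads58 CRISPR, 11.9 to 22.3 CPM in osmads58 dSpm and 10.9 to 13.7 CPM in the wild type, with 1 of the 4, LOC_Os04g51070, at 0 in every osmads58 CRISPR and wild-type sample. It was at 0.484, 0.183, 1.02 and 0.705 CPM in osmads58 dSpm 1, 2, 4b and 5b, and was the 1 of 4 tapetum markers called in osmads58 CRISPR against osmads58 dSpm, as lower (adjusted p = 0.0488, edgeR), where 5.36% of all tested genes were called. In osmads58 dSpm relative to wild type its adjusted p was 0.0629. The part of the cell types in the values of the route was not tested.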

How the data were processed

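The count table holds 9 libraries, and each column was matched to its sample by label. The deposited values are estimated counts per gene, which the authors made by mapping reads with HISAT2 2.1.0 and estimating the levels of annotated genes with StringTie 1.3.3b on MSU v7.0, per the labels and the study's methods. How coverage became counts is not given in the sources used here. Multiples of 4 made up 37.2% to 40.7% of the counts from 1 to 40, where evenly spread counts would give 25%, so limits from counting error (a 0 taken as up to 3 counts) are too narrow.

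The fit was made with edgeR 4.0.16 in R 4.3.3 (TMM, filterByExpr by group, glmQLFit and glmQLFTest, 9 samples in 3 groups). The filter kept 27251 of 33682 genes with a count. Standard errors were obtained by dividing each log2 fold change by the root of its F statistic. CPM values use the effective library size of the tested genes. In simulated data of 26272 tested genes, 173 of 200 genes changed by 3 on the log2 scale were called in osmads58 CRISPR over wild type, with 14 false calls. These changes were larger than those called among the genes of the route and were placed only in genes above a count floor. How often smaller changes, or changes in genes with low counts, would be called was not tested. The alternatives were DESeq2 1.42.0, other scalings, filters and sample sets, counts divided by 4, a replicate block and no fold threshold.

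The members and lists were chosen with earlier results of these data known. All 10 genes are named, with called identifiers of the further lists and the genes most like NiR. Labels do not say whether same-numbered samples were grown together. The study's methods describe the samples of each group as separate lines and biological replicates. Gene lengths were not used here, so levels were not compared between genes.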

Additional observations from a re-analysis of the deposited data

Results flagged for a closer look

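GS1;1 in osmads58 dSpm 2 was at 317 CPM, far from the other 3 samples of that line (139.8 to 151 CPM). The gap took up 0.936 of the range of the 4 samples, above Dixon's critical value of 0.829. Fd-GOGAT in osmads58 dSpm 1 was at 76.4 CPM, with the other 3 samples at 97.7 to 100.05 CPM and a gap of 0.901 of the range. Chance alone sets apart about 1 in 20 groups by this measure.

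The effects of the osmads58 CRISPR and osmads58 dSpm lines, set against the same wild type, differed for NiR and ASN1 by adjusted p in the direct comparison of both lines. Only ASN1 also passed the fold threshold, so NiR was not called. With osmads58 CRISPR over osmads58 dSpm, NiR had a log2 fold change of -0.81 (adjusted p = 0.0222), and ASN1 one of -1.67 (adjusted p = 0.00885), both by the edgeR quasi-likelihood test, Benjamini-Hochberg adjusted. The adjusted p was under 0.05 in 13 of 20 alternative fits for NiR and in 18 for ASN1. Both osmads58 CRISPR samples were below all 4 osmads58 dSpm samples for each gene. In this comparison the samples did not overlap, in either direction, for 40.4% of all tested genes.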

How the results depend on the processing

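Of 480 gene values under 20 alternative fits, 425 kept their call and direction and 20 reversed. Most of the 425 were differences not called in the main fit that stayed so. Of the called differences from wild type in osmads58 CRISPR, GS1;2 kept its call in 9 of 20 fits and ASN1 in 15. The call of ASN1 over osmads58 dSpm was kept in 18. In osmads58 CRISPR over wild type, where 2 genes were called, 1 was called with no filter on low counts and 1 with osmads58 dSpm 1 and 2 only, in both ASN1, and leaving out 1 sample at a time gave 0 to 2. The count was 0 without wild type 2. No call was kept without either osmads58 CRISPR sample, in fits that left 1 sample in that group. In osmads58 CRISPR over osmads58 dSpm, where 1 gene was called, DESeq2, osmads58 dSpm 4b and 5b only, and counts divided by 4 each gave 3. Leaving out wild type 1 and osmads58 dSpm 1 together gave 2, no fold threshold gave 2, and leaving out 1 sample at a time gave 0 (without either osmads58 CRISPR sample) to 3 (without osmads58 dSpm 2). For osmads58 dSpm over wild type 0 were called throughout. Over all tested genes, calls with the same settings ran from 31 to 3469 (1512 as reported) in osmads58 CRISPR over wild type, from 78 to 2850 (1462) over osmads58 dSpm, and from 65 to 2491 (394) in osmads58 dSpm over wild type.

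NiR in osmads58 CRISPR over wild type stayed between -1.03 and -0.90, and passed both thresholds in 8 of 20 fits. With the replicate number as a block, a sample whose number no other sample shares adds nothing to the differences between groups. The differences in that fit therefore rest on samples 1 and 2 of each group. In it, 2 genes (ASN1 and NiR, not GS1;2) were called in osmads58 CRISPR over wild type. It called 1 gene over osmads58 dSpm and 0 in osmads58 dSpm over wild type. Deviations from the group means of same-numbered osmads58 dSpm and wild-type samples correlated with r of 0.313 and 0.127, and those of pairs with an osmads58 CRISPR sample with -0.064 to 0.014. The values with osmads58 CRISPR do not bear on pairing between osmads58 dSpm and the wild type, and differently numbered pairs were not computed. The main fit did not use the numbers as pairing, and whether samples were paired was not settled.

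The reversed values concern differences not past the threshold. In osmads58 dSpm over wild type, NADH-GOGAT1 was at 0.083 and NADH-GOGAT2 at 0.29 with the block. Those values rest on samples 1 and 2 of each group. In the same comparison NADH-GOGAT1 was at 0.010 without wild type 1 and osmads58 dSpm 1, and 0.11 with osmads58 dSpm 1 and 2 only. ASN1 was at -0.15 there with 4b and 5b only. Without wild type 1 and osmads58 dSpm 1, NADH-GOGAT1 was at -0.0029 in osmads58 CRISPR over wild type and at -0.013 over osmads58 dSpm, and Fd-GOGAT at -0.032 over osmads58 dSpm (-0.013 with 4b and 5b only). Leaving out 1 sample at a time in osmads58 dSpm over wild type, GS1;2 ranged from -0.0099 to 0.51, GS2 from -0.34 to 0.019, NADH-GOGAT1 from -0.53 to 0.12 and NADH-GOGAT2 from -0.37 to 0.20. In osmads58 CRISPR over wild type, GS1;1 ranged from -0.053 to 0.31 and NADH-GOGAT1 from -0.0027 to 0.23. Over osmads58 dSpm, Fd-GOGAT ranged from -0.032 to 0.12 and NADH-GOGAT1 from -0.013 to 0.64. The causes were not tested. LOC_Os08g36480 had at most 56 counts, and every call in osmads58 CRISPR rests on 2 samples.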
